A study of Drosophila melanogaster with 2 samples.

Results

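Genes that lie back to back, with start sites close together and transcription running in opposite directions, make up a large part of the Drosophila genome. The short stretch between their transcription start sites (TSSs) serves as the promoter of both, so that a factor bound there lies upstream of a pair of genes at once. Promoters of this kind are common at genes that most cells use, and they are rich in elements such as the DNA replication-related element (DRE) and Ohler Motif 7 rather than in the TATA box with its fixed distance to the TSS.

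The peaks described here are the 383 of 2868 (13.4%) whose summit lay within 500 bp of the TSSs of at least 2 protein-coding genes on opposite strands and upstream of, or on, the nearest of these TSSs. They come from chromatin immunoprecipitation with sequencing (ChIP-seq) on whole adult male Drosophila melanogaster of a transgenic line that carries CG5204 (kmg, kumgang) fused at its C terminus to eGFP, immunoprecipitated with an antibody against GFP. The age of the flies is unknown per the labels, and no source used here names the promoter that drives the fusion. Kmg, with its zinc fingers, is best known from spermatocytes, but whole flies hold many tissues, and peak lists carry no marker of the tissue in which a site was bound. There is 1 group with 2 biological replicates of the same line, chromatin was sheared to 200 to 800 bp, and control libraries were not analysed. The list passed the irreproducible discovery rate (IDR), which asks whether regions rank alike in both replicates. Of the other peaks, 910 lay upstream at promoters with no such partner, called one-directional below, 257 lay downstream of the nearest TSS, and 1318 had no protein-coding TSS within 500 bp. Signal is the height that the authors' peak caller gave each region, on a scale not given in these sources, and the read depth behind it is unknown. Peaks are not replicates and there is no second condition, so shares have 95% Wilson intervals for counting error, values are set beside those of the other peaks, and no test was run.

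The name of the class held up against the annotation. In 380 of the 383 the summit lay in the gap between a minus-strand TSS on its left and a plus-strand TSS on its right (99.2%, interval 97.7 to 99.7), which the rule makes likely but does not require. In the other 3 the 5′ ends of the genes overlapped, by 234 bp at CG31808 and Cyt-c-d, by 141 bp at CG4741 and Adck1 and by 33 bp at p and CG8036. The 383 peaks fell on 351 gene pairs with 701 genes. In 20 of them a further protein-coding gene had a TSS in the window, the strongest lying at Pax, which encodes the adhesion protein paxillin, and Alp12 (signal 459), at Ndfip and CG7484 (240) and at PIG-M and NC2alpha (211), where 5 genes were in reach. At 7 of the 383 a TSS of a gene that is not protein-coding lay in the window.

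The gaps themselves carry the sites, and 6 of them are printed in full, 5 from strong peaks and 1 with a DRE, because they show how little sequence separates such genes. All are on build dm6, read on the plus strand from the RefSeq copy of the Release 6 genome, from the base after the minus-strand TSS to the base before the plus-strand TSS, and no annotated exon overlaps them. Capitals mark the words of the BEAF-32 site (CGATA), the DRE (TATCGATA), Ohler Motif 7 (CAGCNCTA, CAGCNCTG, CATCNCTA or CATCNCTG) and the E-box (CAGCTG) on either strand.

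Tcs5/CHMP2B, chr3L:5139396-5139618, signal 964, summit at base 96: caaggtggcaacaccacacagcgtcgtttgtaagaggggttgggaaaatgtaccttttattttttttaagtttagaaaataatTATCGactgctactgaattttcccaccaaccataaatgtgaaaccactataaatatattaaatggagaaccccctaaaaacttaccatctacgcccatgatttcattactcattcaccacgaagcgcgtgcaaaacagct
Art3/mRpS10, chr3R:15229409-15229664, signal 848, summit at base 125: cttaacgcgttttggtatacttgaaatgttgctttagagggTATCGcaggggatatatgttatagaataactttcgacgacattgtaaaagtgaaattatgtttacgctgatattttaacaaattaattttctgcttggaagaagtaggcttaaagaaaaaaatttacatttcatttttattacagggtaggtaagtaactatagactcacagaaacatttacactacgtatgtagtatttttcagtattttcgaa
CG3437/CG3552, chr3L:9457670-9457911, signal 632, summit at base 144: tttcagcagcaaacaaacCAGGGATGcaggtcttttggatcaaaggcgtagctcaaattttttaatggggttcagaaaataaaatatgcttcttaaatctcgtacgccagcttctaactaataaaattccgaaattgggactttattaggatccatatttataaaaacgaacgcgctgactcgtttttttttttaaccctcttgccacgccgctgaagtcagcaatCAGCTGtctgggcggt
Lon/PIG-F, chr3L:19612200-19612454, signal 617, summit at base 98: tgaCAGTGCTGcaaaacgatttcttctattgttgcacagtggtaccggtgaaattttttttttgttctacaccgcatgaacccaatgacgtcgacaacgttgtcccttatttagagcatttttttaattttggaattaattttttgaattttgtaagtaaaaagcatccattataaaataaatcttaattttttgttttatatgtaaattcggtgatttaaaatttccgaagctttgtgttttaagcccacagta
CG32022/CG6511, chr3L:8721273-8721323, signal 538, summit at base 22: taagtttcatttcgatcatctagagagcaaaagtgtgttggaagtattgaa
Su(P)/CG4101, chr3L:16612200-16612485, signal 257: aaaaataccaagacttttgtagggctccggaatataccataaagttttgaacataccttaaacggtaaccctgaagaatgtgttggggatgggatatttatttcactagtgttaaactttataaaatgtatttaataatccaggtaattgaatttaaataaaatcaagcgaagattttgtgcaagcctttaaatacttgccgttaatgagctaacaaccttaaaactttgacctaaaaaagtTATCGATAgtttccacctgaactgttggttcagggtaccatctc

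The first 5 are among the 11 strongest peaks of the class and none of them holds a DRE. The gap of Su(P) and CG4101 is shown as an example with a DRE, which holds the BEAF-32 word on both strands. The BEAF-32 word occurs once each in the gaps of Tcs5/CHMP2B and Art3/mRpS10, Motif 7 once each in those of CG3437/CG3552 and Lon/PIG-F, and the E-box once in that of CG3437/CG3552. The gap of CG32022/CG6511, only 51 bp long, holds none of these words. A match is a match of letters, not a bound site, and a gap without one says nothing of the factor.

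Summits sat near the middle of the gap. The paired TSSs were a median of 336 bp apart (quartiles 260 and 462), the nearer TSS lay a median of 111 bp from the summit (quartiles 70.5 and 152) and the farther one 224 bp (quartiles 163 and 329). The summit was 52.5 bp from the midpoint at the median, and within 50 bp of it in 188 of 383 (49.1%, interval 44.1 to 54.1). One-directional summits lay a median of 194 bp upstream of their TSS (quartiles 110 and 290), between those values, and the rule itself makes the nearer of paired TSSs the closer one. Each replicate's own summits gave almost the same medians for the divergent pairs, 111 bp to the nearer TSS in replicate 1 and 107 bp in replicate 2, and 51.5 and 52.5 bp from the midpoint. Replicate summits were taken within 100 bp of the pooled summit, which favours close medians and, below, summits on the same side. The distance from the TSS went with the width of the gap. Spacing classes here exclude their lower bound, other than 0, and include their upper one. The nearer TSS was at a median of 49.5 bp in gaps of 100 to 200 bp, 96 bp in gaps of 200 to 300 bp, 119 bp in gaps of 300 to 500 bp and 202 bp in gaps of 500 to 1000 bp, while the distance from the midpoint stayed between 13.3% and 17.4% of the gap in every spacing class. The rule sets part of both patterns. A summit inside a gap is never farther from the nearer TSS than the midpoint is. In gaps over 500 bp, the need for both TSSs within 500 bp also keeps summits towards the middle. Off-centre summits mostly stayed on their side in the other replicate. Among the 250 peaks whose replicate 1 summit lay over 25 bp from the midpoint, the replicate 2 summit was on the same side in 215 (86%, interval 81.2 to 89.8). CenG1A, which encodes a GTPase-activating protein for Arf, and mRpS23 of the mitochondrial ribosome show such a lopsided case, with the summit 108 bp from the TSS of CenG1A and 384 bp from that of mRpS23.

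**Figure D1:**
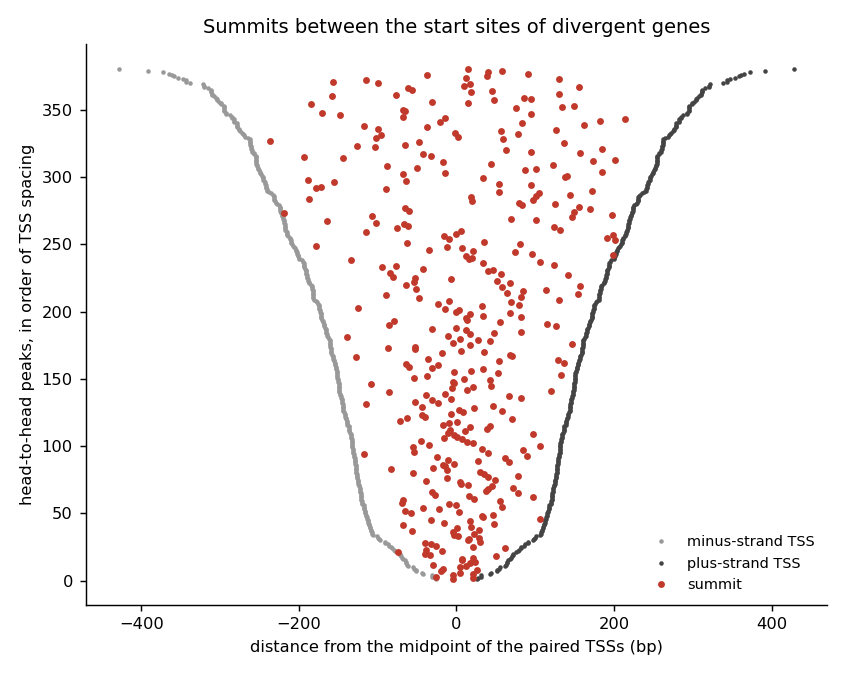
Each of the 380 head-to-head peaks is a row, in order of TSS spacing, with the summit (red) and the minus-strand (light grey) and plus-strand (dark grey) TSSs at their distance in bp from the midpoint of the pair. Summits crowd around the midpoint in narrow gaps and spread with the gap, with a median distance from the midpoint of 33 bp at 200 to 300 bp and 86.8 bp at 500 to 1000 bp.

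The annotation holds 2667 head-to-head pairs of protein-coding genes up to 1000 bp apart, and 349 of them (13.1%) had a peak of the class. Here a pair is placed by its closest TSSs, while a peak above is placed by the TSSs nearest to its summit, so the spacings can differ where a gene has several TSSs. Pairs of middle spacing had one most often. The share was 20.5% of 542 pairs at 200 to 300 bp (interval 17.3 to 24.1) and 19.2% of 667 at 300 to 500 bp (16.4 to 22.4). It was 5.12% of 430 pairs at 0 to 100 bp (3.40 to 7.62), where 6 of the 430 pairs had an IDR summit inside the closest gap, 8.71% of 356 at 100 to 200 bp (6.20 to 12.1) and 8.48% of 672 at 500 to 1000 bp (6.60 to 10.8). The 2868 strongest regions of each replicate gave the same order of the middle classes over the rest, with 25.3% at 200 to 300 bp in both replicates against 7.21% and 6.98% at 0 to 100 bp. The rule leaves less room in narrow and in wide gaps, so the pairs were also counted with 1 fixed window for all, a choice made after seeing the data. An IDR summit of any class lay within 250 bp of the midpoint of 9.07% of pairs at 0 to 100 bp, 12.9% at 100 to 200 bp, 22.7% at 200 to 300 bp, 22.8% at 300 to 500 bp and 13.4% at 500 to 1000 bp, so the classes from 200 to 500 bp stayed above the others, with a smaller spread, while the order within each of these groups changed. Counted by an IDR summit inside the closest gap, the shares were 1.40%, 6.74%, 21.6%, 22.0% and 17.0% from the narrowest class to the widest, and longer gaps have more room for one. Gaps of 200 to 300 bp also held the strongest peaks, with a median signal of 127 (66.4 in replicate 1 and 63.4 in replicate 2), against 97.6 at 300 to 500 bp (51.8 in both) and 72.9 at 500 to 1000 bp (37.9 and 39.8). Only 6 peaks fell in gaps of up to 100 bp, yet these include CG10747 and Pyroxd1 (565), 87 bp apart, and CG32022 and CG6511 (538), 52 bp apart. The widest gap, 856 bp at CG16956 and CG42784, had a signal of 49.5, and the next, 784 bp at Jheh3 and CG43069 and 746 bp at the profilin gene chic and the helicase gene eIF4A, had 52.2 and 65.0.

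**Figure D2:**
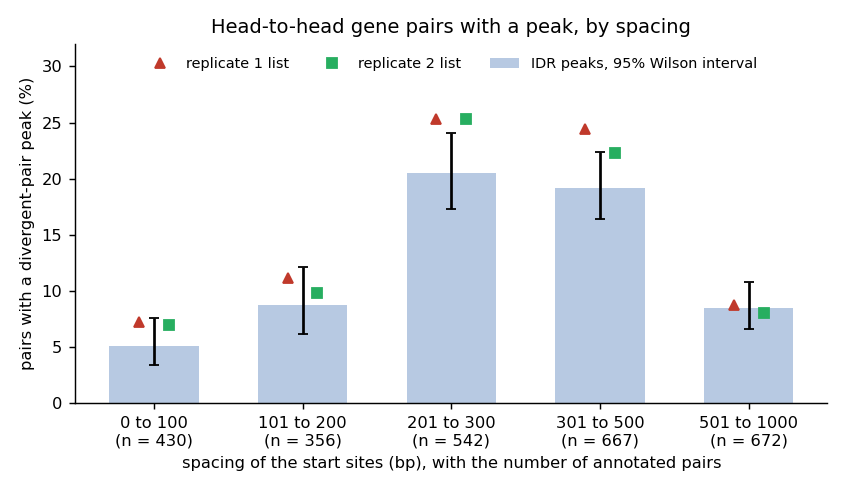
Share of annotated head-to-head pairs with a peak of the class (y axis, %) by spacing of the TSSs (x axis, bp). Bars are IDR peaks with 95% Wilson intervals, triangles and squares the 2868 strongest regions of replicate 1 and of replicate 2, and the classes from 200 to 500 bp stand above the others in all 3 lists.

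Genes of head-to-head pairs had promoter peaks more often than other genes. A peak of any class lay within 500 bp of a TSS for 976 of 5052 genes in such pairs (19.3%, interval 18.3 to 20.4) and for 772 of 8916 other protein-coding genes (8.66%, 8.09 to 9.26), with 12.5% over all protein-coding genes as background. In the replicates' own lists the shares were 23.8% and 8.82% in replicate 1 and 21.9% and 8.23% in replicate 2. A single peak in a gap counts for both genes, which raises the first share. Genes in pairs with a peak were a little longer than those in pairs without, with a median length of 2780 against 2238 bp, and 28.8% against 35.8% of them were known by a CG number only.

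Over all arms and spacings together, divergent-pair peaks were stronger than the rest of the list in median signal. Their median signal was 98.7 (quartiles 66.1 and 172), against 78.9 for one-directional peaks, 70.6 for downstream peaks and 73.0 over all 2868 peaks. For peaks listed in both replicates the medians were 53.9 for the class and 41.0 for one-directional peaks in replicate 1, and 51.8 and 44.3 in replicate 2, so both replicates put the class higher. The class made up 67 of the 287 strongest peaks (23.3%, interval 18.8 to 28.6) and 12 of the 287 weakest (4.18%, 2.41 to 7.16). One-directional peaks went from 39.4% to 25.8% between the same groups. In the replicates' own lists the class went from 24.7% of the strongest 287 to 6.62% of the weakest in replicate 1, and from 23.7% to 4.53% in replicate 2. The authors' false discovery rate was at most 5% for 303 of the 383 (79.1%), against 66.6% of one-directional peaks and 62.4% of all.

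Tcs5, a kinase of the complex that modifies tRNAs with threonylcarbamoyl, and CHMP2B, of the ESCRT-III membrane-remodelling machinery, shared the highest peak, whose signal was 525 in replicate 1 and 443 in replicate 2. Pdrg1, related to the prefoldin chaperones, and Pal1, an enzyme of neuropeptide amidation, had 404 and 533, at a summit exactly 173 bp from each TSS. Art3, an arginine methyltransferase, and mRpS10, a protein of the mitochondrial ribosome, had 431 and 416. The pair of mRpS23 and CenG1A had 378 and 353, and Hrd3, which helps degrade misfolded proteins of the endoplasmic reticulum, with the mitochondrial phosphatase gene PTPMT1 had 337 and 338. Neither replicate was regularly the higher one among these 5, which carried 2 genes of the mitochondrial ribosome.

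Ranks 6 to 14 had pooled signals from 656 down to 506. CG5611 and Mtl (656) came first, then CG3437 and CG3552 (632). Lon, the protease of the mitochondrial matrix, shared its gap with PIG-F of glycosylphosphatidylinositol anchor synthesis (617), with 296 in replicate 1 and 319 in replicate 2. The furin protease gene Fur1 and the vesicle fusion gene Vps33B had 575, CG10747 and the oxidoreductase gene Pyroxd1 had 565, and CG32022 and CG6511 had 538. CG7601 and CIA30, an assembly factor of respiratory Complex I, had 525, with the summit 109 and 111 bp from the TSSs. Bdp1, a subunit of the RNA polymerase III factor TFIIIB, and CG6565 had 512, and the kinase gene Mkk4 and SLIRP2 had 506.

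Ranks 15 to 25 had signals from 459 to 371. Besides Pax and Alp12 they were Coq4 of ubiquinone synthesis with CG32176 (455), the endocytic gene Reps with l(2)gd1, a regulator of endosomal Notch (451), and the translational repressor gene eIF4EHP with CG18428 (439). Mnat9 and CG1792 had 418, and the histone acetyltransferase gene Gcn5 with the telomere capping gene ver had 413. CG13018 and CG13016 had 404, CG1275 and Elp5 of the tRNA-modifying Elongator complex had 402, and RpS27 of the small ribosomal subunit with the nucleoporin gene Nup37 had 393. Brf, another TFIIIB subunit, and the phosphatase regulator gene sds22 had 384, and brm, the ATPase of the SWI/SNF remodeller, with the Golgi GTPase gene Arl1 had 371. All 25 were listed in both replicates, in the first 114 places of replicate 1 and the first 115 of replicate 2, and the ratio of replicate 1 to replicate 2 signal ran from 0.739 to 1.18. They were chosen by pooled signal, which favours such ranks.

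Over the whole class 348 of 383 peaks (90.9%) had a region with its summit within 100 bp in both replicates, 14 in replicate 1 only, 19 in replicate 2 only and 2 in neither, against 88.0% in both over all IDR peaks. The ratio of replicate 1 to replicate 2 had a median of 1.02 (quartiles 0.839 and 1.23). Replicate summits lay a median of 27.5 bp apart, against 29.0 bp over all IDR peaks. Signals differed by more than 2-fold at 32 of the 348 (9.20%), of which 1 was among the 100 strongest. That share was 9.32% for one-directional peaks and 11.6% over all IDR peaks. The largest ratios towards replicate 1 were at trem and idc (70.1 against 15.6), at CG3309 and the DNA repair gene XRCC1 (44.7 against 10.9) and at mRpS21 and Droj2 (73.8 against 27.1). Those towards replicate 2 were at CG43102 and pasi1 (12.2 against 37.5) and, among others, at CG4360 and the deacetylase gene Sirt2 (19.4 against 47.6). The pooled signals of these 5 lay between 49.7 and 89.3, below the median of the class. At trem and idc the replicate 1 value exceeds the pooled 60.5, so the region matched there may be a neighbour of the peak. At mRpS21 and Droj2 the matched replicate 1 summit lay between both pooled peaks of the pair. The other of these peaks had no replicate 1 match, so the same may hold there.

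**Figure D3:**
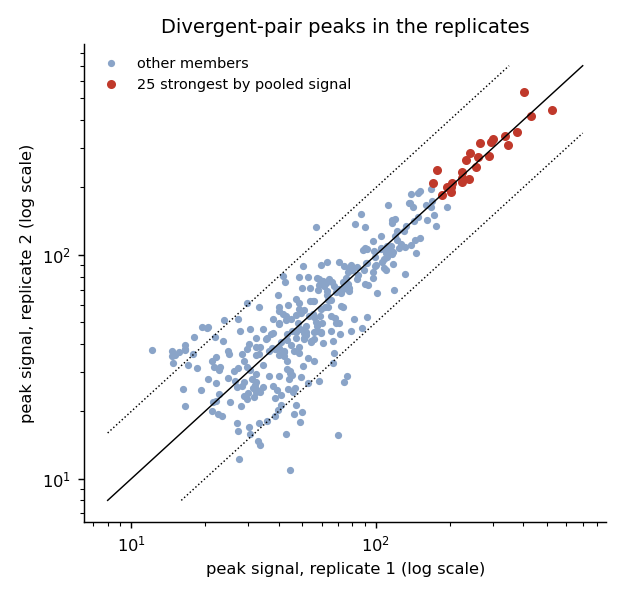
Signal of the 348 divergent-pair peaks listed in both replicates, replicate 1 on the x axis and replicate 2 on the y axis, both on log scales, with the line of equal signal and dotted lines at a 2-fold difference. The 25 strongest by pooled signal (red) stay within the dotted lines, and 32 weaker peaks lie outside them.

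In 32 of the 351 pairs a second peak of the class was called. In 30 of the 32 the summits lay between 199 and 222 bp apart, and 199 bp is also the smallest distance between summits in each deposited list, pooled and per replicate. Pax and Alp12 had 459 and 172, with summits 200 bp apart in a gap of 498 bp, Irbp18 and APP-BP1 had 324 and 82.9, also 200 bp apart, and Acbp1 and the ion channel gene Piezo had 316 and 167, 207 bp apart. Whether such second summits are sites of their own was not tested. Counting 1 peak per pair, a choice made after seeing the data, raised the median signal from 1.35 to 1.46 times that of all peaks.

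Among genes in head-to-head pairs 698 of 5052 (13.8%) belonged to a pair with a peak, and over 13 lists, chosen with earlier results of these data known, 52 of 344 did (15.1%). Genes of the cytoplasmic ribosome had 11 of 56 (19.6%, interval 11.3 to 31.8), among them RpS27 (393) and RpL34b (334). Those of the mitochondrial ribosome had 11 of 59 (18.6%, 10.7 to 30.4), with mRpS10 (848), mRpS23 (738) and mRpL24 (309). The replication genes, which include Mcm2 and Mcm5 of the replicative helicase (107 and 99.0) and the polymerase subunit PolD2 (107), had 4 of 18, the Mediator genes 4 of 21, with MED30 (331), MED17 (153) and MED7 (118), and the ESCRT genes 3 of 11, with CHMP2B (964), Vps36 (224) and Stam (45.1). The splicing genes had 5 of 28, among them SNRPG (150), Sf3b6 (138) and snRNP-U1-C (117), the nucleoporins 3 of 18, with Nup37 (393), Nup43 (57.8) and Nup58 (53.1), and chaperonin and prefoldin genes 2 of 11, CCT5 (89.1) and mgr (78.8). Shares under the background were those of proteasome subunits with 2 of 26, Rpn5 (197) and Rpn8 (93.6), Complex I with 2 of 22, ND-MWFE (232) and ND-MNLL (63.1), and general transcription factors with 2 of 24, TfIIA-L (211) and Taf13 (75.4). The tRNA synthetases had 2 of 23, GluProRS (221) and IleRS (114), and vesicle tethers and SNAREs had 1 of 27, Syx16 (66.6). Each of the intervals over the 13 lists spans the 13.8%. Counted instead by a promoter peak of any class, 30 of 93 genes of the cytoplasmic ribosome had one (32.3%) and 16 of 75 of the mitochondrial ribosome (21.3%), against the 12.5% of all protein-coding genes. Over the 13 lists 91 of 505 genes had one (18.0%), with shares from 4.17% for the proteasome to that 32.3%. Most genes of the ribosome lists were in head-to-head pairs (56 of 93 and 59 of 75), and genes in such pairs had a share of 19.3%. RpS27 and Nup37 were the only pair in which both genes were on the lists.

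Words of promoter elements were looked for on either strand up to 100 bp from each summit. Ohler Motif 7, a core promoter element of flies, lay there at 98 of the 383 summits (25.6%, interval 21.5 to 30.2), against 12.5% of one-directional summits (10.5 to 14.8), 11.5% of all IDR summits and 12.0% of windows of the same length that end at a protein-coding TSS. Replicate summits gave 26.0% and 24.5%. The words stood off the summit and close to the TSSs. There were 0.836 Motif 7 words per kb in the first 25 bp on each side of the summit and 2.72 per kb at 100 to 125 bp, and a median of 31.5 bp separated a word from the nearer of the paired TSSs (quartiles 12.8 and 68.2). The windows compared do not reach TSSs alike. The nearest TSS lay a median of 111 bp from class summits and 194 bp from one-directional ones. Windows ending at a TSS hold nothing downstream of it, while 89 of 118 words of the class (75.4%) lay inside the gap. The part of window placement in these shares was not tested. The E-box was spread in a like way, with 0.574 words per kb in the first 25 bp and 1.57 at 125 to 150 bp. In a window at the midpoint of the pair Motif 7 was found at 13.8% of the class, and within 50 bp of the summit at 7.57%. Among pairs over 200 bp apart it was at 13.5% of midpoints with a peak (interval 10.1 to 17.9) and 8.64% of those without (7.36 to 10.1). Over pairs of all spacings it was at 16.9% of midpoints with a peak (13.3 to 21.2) and 14.8% of those without (13.4 to 16.3), intervals that overlap.

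The BEAF-32 word, named for an insulator protein that binds near divergent promoters, lay at 40.5% of the summits (interval 35.7 to 45.5) and at 30.0% of one-directional ones (27.1 to 33.1), and the DRE, bound by Dref, at 8.09% (5.76 to 11.3) and 4.95% (3.72 to 6.55). Windows ending at any protein-coding TSS held them at 36.6% and 6.20%. Midpoints of head-to-head pairs of all spacings without a peak had 41.6% (39.6 to 43.6) and 8.89% (7.80 to 10.1). Those intervals overlap the ones of the class. Among pairs over 200 bp apart, midpoints without a peak had 31.4% (29.1 to 33.7) and 3.97% (3.12 to 5.05), below the class intervals. Class windows were centred on summits rather than midpoints. Midpoints of such pairs with a peak had 36.5% (31.2 to 42.1) and 5.74%. For both words their intervals overlap those of midpoints without a peak. Each DRE contains the BEAF-32 word, so the counts are not separate. A control word of the same bases as the BEAF-32 word (GCATA) lay at 27.4% and 32.3%, and the control for the DRE (ATAGCTAT) at 0.261% and 0.879%. Peaks with a DRE had a lower median signal, 74.1 (n = 31) against 99.9 without, 40.1 against 54.1 in replicate 1 and 37.9 against 51.5 in replicate 2. Of the 191 stronger peaks of the class 12 had a DRE (6.28%, 3.63 to 10.7). Of the 192 weaker ones 19 had one (9.90%, 6.43 to 14.9), and these intervals overlap. With and without the BEAF-32 word the medians were 90.2 and 111, in replicate 1 47.3 and 58.7, and in replicate 2 44.8 and 57.7. The M1BP word (GGTCACAC) was rare, at 2.87% of the class (1.61 to 5.07) and 2.31% of one-directional summits (1.51 to 3.50). At midpoints of pairs of all spacings it lay at 6.04% without a peak (5.14 to 7.08) and 1.15% with one (0.447 to 2.91). Among pairs over 200 bp apart the shares were 2.02% (1.43 to 2.84) and 0.676% (0.185 to 2.43), intervals that overlap. The GAGA word (GAGAG) lay at 15.1% of the class (11.9 to 19.1) and at 25.4% of one-directional summits (22.7 to 28.3), and the initiator (TCAGTC or TCAGTT) at 13.8% and 16.4%. The TATA word (TATAAA) lay at 47.8% and 35.7%, but here at a median of 118 bp from the nearer TSS and most densely at the summit itself, with 4.39 words per kb in the first 25 bp. Among pairs over 200 bp apart, GAGA lay at 13.5% of midpoints without a peak (11.9 to 15.3) and 12.8% with one (9.50 to 17.1). The initiator lay at 17.1% and 13.9% of them, and TATA at 43.6% (41.2 to 46.1) and 52.0% (46.3 to 57.7). Over pairs of all spacings the shares without and with a peak were 14.6% and 14.3% for GAGA. They were 18.8% and 14.0% for the initiator, and 38.4% and 49.0% for TATA. Base composition also differed between these sets. The windows had 33.1% G and C on average in the class (SD 5.99 over peaks), 35.8% (SD 7.32) at one-directional summits and 29.5% (SD 5.66) at midpoints of pairs over 200 bp apart with a peak, and its part in the counts was not tested.

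**Figure D4:**
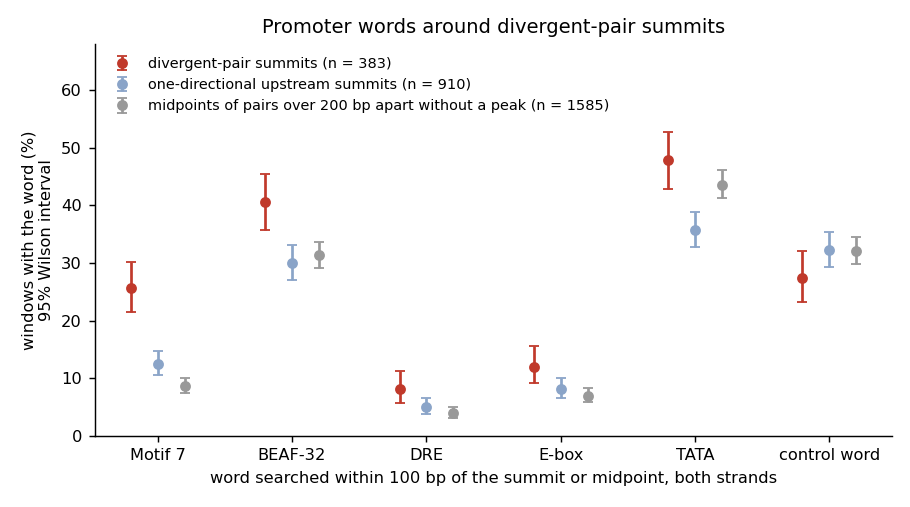
Share of windows of 100 bp to each side (y axis, %) that hold each word on either strand (x axis), for divergent-pair summits, one-directional summits and midpoints of head-to-head pairs over 200 bp apart without a peak, with 95% Wilson intervals. Motif 7 lies at 25.6%, 12.5% and 8.64%, and the midpoints of pairs of all spacings without a peak, not drawn, hold it at 14.8%.

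On the X chromosome, of which males have a single copy, the peaks of the class were weaker. The 50 peaks there had a median signal of 64.1 (quartiles 51.7 and 109), against 106 (71.3 and 194) for the 331 on 2L, 2R, 3L and 3R. Among peaks listed in both replicates the medians were 39.6 and 57.1 in replicate 1, and 38.8 and 52.9 in replicate 2. The ranges overlapped widely. None of the 25 peaks of the class among the 100 strongest of the whole list was on the X. Those 100 held 3 of the 167 one-directional peaks on the X and 35 of the 729 on the autosomal arms. Of peaks without a protein-coding TSS within 500 bp they held 4 of 272 and 20 of 1039. In median signal one-directional peaks did not show the order of the class, with 81.2 on the X and 79.5 on the autosomal arms. Nor did peaks without such a TSS, with 68.2 and 64.7. Gaps with a peak were wider on the X, with a median spacing of 426 against 323 bp, and over the whole class the widest gaps had weaker peaks. Within spacing classes the X was still lower, with 72.4 (n = 14) against 134 (n = 103) at 200 to 300 bp, 65.4 (n = 18) against 104 (n = 136) at 300 to 500 bp and 60.8 (n = 16) against 79.3 (n = 59) at 500 to 1000 bp. In replicate 1 these medians were 40.1 against 71.8, 36.8 against 54.4 and 24.4 against 42.7, and in replicate 2 they were 37.6 against 70.3, 38.8 against 53.8 and 35.6 against 42.7. The strongest on the X lay at Stt3A, a subunit of the oligosaccharyltransferase, and bves (21054239 to 21054396, signal 241), at IntS6 of the Integrator complex and the helicase gene Rtel1 (222) and at yin and CG2930 (184). A share of 11.4% of 403 head-to-head pairs on the X had a peak (interval 8.67 to 14.9), between the 10.7% on 2R and the 15.4% on 3R. Chromosome 4 had 2 peaks of the class, at CG46466 and Slip1 (67.2) and at CG11076 and the ATP synthase gene ATPsynbeta (65.5).

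**Figure D5:**
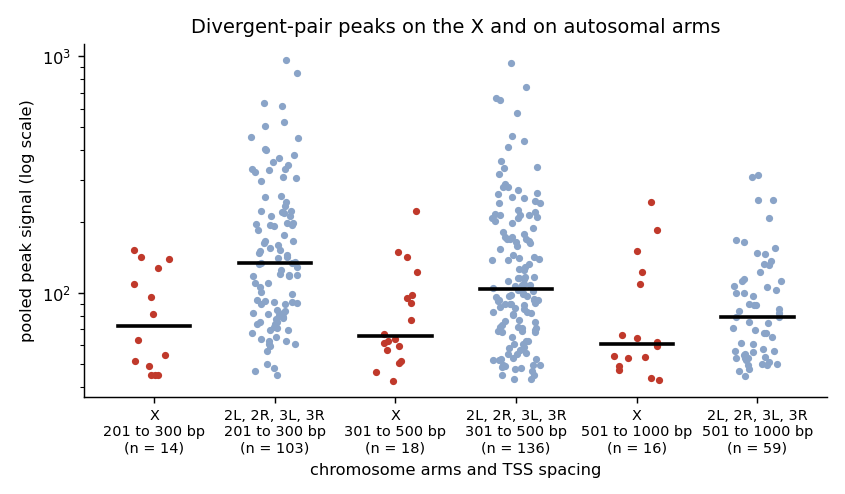
Pooled signal (y axis, log scale) of divergent-pair peaks on the X (red) and on 2L, 2R, 3L and 3R (blue) in 3 classes of TSS spacing (x axis), with black lines at the medians. The X medians of 72.4, 65.4 and 60.8 lie below the autosomal 134, 104 and 79.3, with overlapping points.

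Of the 2318 head-to-head pairs without a peak of the class, 265 (11.4%, interval 10.2 to 12.8) had any region of the pooled list of 30000, which includes background, with its summit in the gap, and 85 (3.67%) had an IDR summit there that the rule assigned elsewhere. The 500 bp limit itself cut through a range of signals. Just inside it, the farther TSS was 500 bp from the summit at app and CG32100 (signal 246), 499 bp at Gnpat and CG5112 (55.3) and 496 bp at yki, the effector of Hippo signalling, and Gpat4 (46.6). Just outside lay CG14968 and ZnT63C at 506 bp (173), wdn and the splicing gene Prp39 at 508 bp (46.7) and wdb and pins at 509 bp (103).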

How the data were processed

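The authors deposited narrowPeak lists on build dm6 whose main value is a peak signal. The −log10 of each region's q-value was deposited by the authors in the same lists. No source used here gives the peak caller, aligner, filters or read totals, so depth and its precision are unknown. Each replicate list and the pooled list hold 30000 regions, background included, and the IDR list holds 2868.

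The summit was used in place of the borders, since 2590 peaks have the same width of 430 bp. Ensembl release 115 gave 13968 protein-coding genes and 19630 of their TSSs, and its assembly is the one that dm6 names. The nearest protein-coding TSS decided upstream or downstream, and the partner was the nearest TSS of another gene on the opposite strand. A replicate's value is that of the region whose summit lay nearest within 100 bp. Intervals are 95% Wilson intervals. Named peaks were the 25 strongest, up to 3 per gene list (1 of these is not reported here), the 3 narrowest and widest spacings, the 3 largest replicate ratios each way, the strongest with 3 or more genes, those at the window's edge and the strongest per arm. Members, lists and words were chosen with earlier results of these data known. Windows of 200 and 1000 bp, the 1434 strongest peaks, a false discovery rate of at most 5%, each replicate alone, 1 TSS per gene, head-to-head pairs only and 2 other motif windows were the alternatives, with 2 more added after seeing the data. The dm3 lists were not used. Classification was checked on simulated data. Scripts ran under Python 3.11.15 with pandas 2.3.3, numpy 2.4.6, matplotlib 3.10.9 and scipy 1.17.1. No paired fit applies, with 1 group.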

Additional observations from a re-analysis of the deposited data

How the results depend on the processing

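Among the comparisons given in the report, every alternative run kept divergent-pair peaks above one-directional and all peaks in median signal, taken over all arms. Where pairs were counted, those over 200 and up to 500 bp apart stayed above other pairs. With a window of 200 bp there were 160 peaks (5.58% of the list) with signal 1.64 times that of all and 1.41 times that of one-directional peaks, a median spacing of 256 bp, and peaks at 5.96% of all pairs, 10.1% of pairs over 200 and up to 500 bp apart, 2.54% of other pairs, 13.8% of genes in pairs and 5.02% of other genes. With 1000 bp the class was 16.9% of the list, its signal 1.32 times that of all peaks and its spacing 390 bp, with 15.6% of pairs, 11.7% of pairs of other spacing, 21.9% of genes in pairs and 10.4% of other genes. Among the 1434 strongest peaks the class was 18.4%, with ratios of 1.12 and 1.03, spacing 309 bp, and shares of 9.30%, 14.9%, 4.66%, 13.9% and 4.69% in the order above. Where the q-value limit was 5%, the class was 16.9%, with ratios of 1.16 and 1.06, spacing 319 bp, and shares of 10.7%, 16.8%, 5.62%, 15.8% and 5.83%. The main run had ratios of 1.35 to all peaks and 1.25 to one-directional ones. Both of these alternatives remove weak peaks from every class, and the part of that in their lower ratios was not tested. With 1 TSS per gene the class was 11.5%, the summit lay between the TSSs in 96.7%, spacing was 320 bp, other pairs had 5.93%, genes in pairs 17.6% and other genes 7.46%. With head-to-head pairs only, the summit lay between the TSSs in 100% by construction. Of the alternatives added after seeing the data, 1 peak per pair gave ratios of 1.46 and 1.35 and spacing 323 bp, and any summit within 250 bp of the midpoint gave 16.9% of pairs, 22.7% of those over 200 and up to 500 bp apart and 12.0% of the others.

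Each replicate alone, as its 2868 strongest regions, gave a class of 15.2% to 16.1% of the list, signal ratios to all peaks of 1.30 to 1.34, spacing of 321 to 331 bp, and a peak at 15.2% to 16.1% of pairs, at 23.7% to 24.8% of those over 200 and up to 500 bp apart and at 21.9% to 23.8% of genes in pairs. These lists passed no IDR. Of 70 values under alternatives for shares of single words, 59 moved by less than their interval or replicate spread, and the 11 that moved by more were in windows of 50 bp or at the midpoint. No paired analysis was possible because there is 1 group. Depth is unknown, intervals cover counting only, and only 6 peaks have their paired TSSs up to 100 bp apart. Whole flies do not show in which cells a site was bound.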
